A study of Caenorhabditis elegans with 9 samples.

Results

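The 10 genes described here encode proteins that pair, join and recombine homologous chromosomes during meiosis in *C. elegans*: *syp-1*, *syp-2*, *syp-3*, *him-3*, *htp-1*, *htp-3*, *rec-8*, *spo-11*, *him-8* and *msh-5*. They were named in a list of meiosis genes, with no threshold on their values, and each was represented by every probe set that the array's annotation gives it, which made 12 probe sets of 22625 and 10 of the 17138 genes on the array. All 10 passed the filter on low values that 11760 genes passed. Whole animals of the wild type strain Bristol N2, kept at 20°C on *E. coli* OP50 as food, were collected as L4 larvae, at Day 6 of adulthood and at Day 15 of adulthood. Each age had 3 arrays from independently propagated populations, which made 9 arrays. The adults had been moved at the L4 stage to plates with 0.05 mg/ml FUdR, an inhibitor of DNA synthesis given to stop hatching. The larvae never met the drug, so that drug exposure and adulthood cannot be told apart in a comparison with L4. The comparison of the adult ages, both on the drug, addresses which transcripts change between Day 6 and Day 15. Day 15 animals had also been on the drug for longer, so age and length of exposure cannot be told apart there.

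In meiotic prophase each chromosome is organised on a protein axis made of cohesin and of HORMA domain proteins. Homologous chromosomes recognise each other at pairing centres, are joined along their length by the synaptonemal complex, and exchange DNA at crossovers that begin as programmed double-strand breaks. These events take place only in germ cells, which in an adult hermaphrodite fill the gonad arms. RNA of the whole animal was measured, so a higher value can come from more germ cells relative to other tissues or from more RNA per germ cell, and these cannot be told apart.

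Values are log2 expression levels as deposited, where a difference of 1 is 2-fold, and levels under 4 lie near the background. A gene is said to rise or fall between ages where its p, adjusted by Benjamini-Hochberg over the 11760 genes in limma, was under 0.05 and it differed by 2-fold or more. Levels of different probe sets cannot be set against each other, so only changes of a gene between ages are compared. The 3 L4 arrays differed more among themselves than the adult arrays did: correlations between arrays of an age were 0.954 to 0.986 in L4, 0.9947 to 0.995 at Day 6 and 0.9929 to 0.9955 at Day 15, and the median standard deviation (SD) of a tested gene was 0.41, 0.18 and 0.22. The mean level of 13 oocyte markers was 7.80, 10.84 and 8.96 in L4 replicates 1, 2 and 3. That of 15 germ cell markers was 8.11, 9.39 and 8.81, again lowest in replicate 1 and highest in replicate 2. Because all 9 arrays share 1 estimate of the spread, the L4 arrays also widen the error of the comparison between Day 6 and Day 15, which is therefore given with the 6 adult arrays alone as well.

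From Day 6 to Day 15 all 10 genes had a higher mean, and in 9 of them every Day 15 array lay above every Day 6 array. This held for 34.5% of all tested genes in the same direction. The exception was *spo-11*. Only *syp-1* passed both thresholds, where 16.4% of tested genes did in this direction, because 7 of the other changes were under 2-fold and the remaining ones, of *htp-3* and *rec-8*, had adjusted p = 0.0512 and 0.182. An adjusted p under 0.05 at any size of change was reached by 4 genes (*syp-1*, *syp-3*, *him-8* and *msh-5*), against 23.2% of tested genes. With the 6 adult arrays alone the spread of the L4 arrays dropped out, and 3 genes rose (*syp-1*, *htp-3* and *rec-8*), where 18.2% of tested genes did. In that fit 8 of the 10 genes, all but *syp-2* and *spo-11*, had an adjusted p under 0.05 at any size of change, against 32.2% of tested genes. In the fit of all ages the count of 1 became 3 without L4 replicate 1 or without L4 replicate 2, and 2 without Day 6 replicate 2 or without Day 15 replicate 2. The median change of the 10 genes was 0.78 on the log2 scale, beside 0.00 over all tested genes.

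From L4 to Day 6 some of the genes passed the thresholds and others did not, and whether the genes differ from each other was not tested. *syp-1*, *htp-3*, *rec-8*, *spo-11* and *msh-5* rose by 2.40-fold to 3.62-fold, and the changes of *syp-2*, *syp-3*, *him-3*, *htp-1* and *him-8* lay between 0.11 lower and 0.52 higher on the log2 scale and did not pass. These 5 of 10 genes stood beside 29.2% of tested genes that rose, and the same 5 had no overlap between the ages, beside 39.6% of tested genes. With the L4 and Day 6 arrays alone the count was 3 (*syp-1*, *spo-11* and *msh-5*), beside 28% of tested genes. It was 2 without L4 replicate 1 and 3 without any other single array except L4 replicate 2, where it stayed at 5. Over the whole span from L4 to Day 15, 7 of 10 rose (32.3% of tested genes did), and in 9 of 10 the arrays did not overlap (41.1% of tested genes), the exception being *htp-1*. No gene of the 10 fell, where 24.6% of tested genes fell from L4 to Day 6, 16.9% from Day 6 to Day 15 and 26.7% from L4 to Day 15, and the only change below 0 was that of *htp-1* from L4 to Day 6. The means followed the order L4, Day 6, Day 15 from low to high in 9 of 10, again with *htp-1* as the exception, beside 27.2% of tested genes, and 1 gene, *syp-1*, rose in both steps, beside 2.99%.

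**Figure D1:**
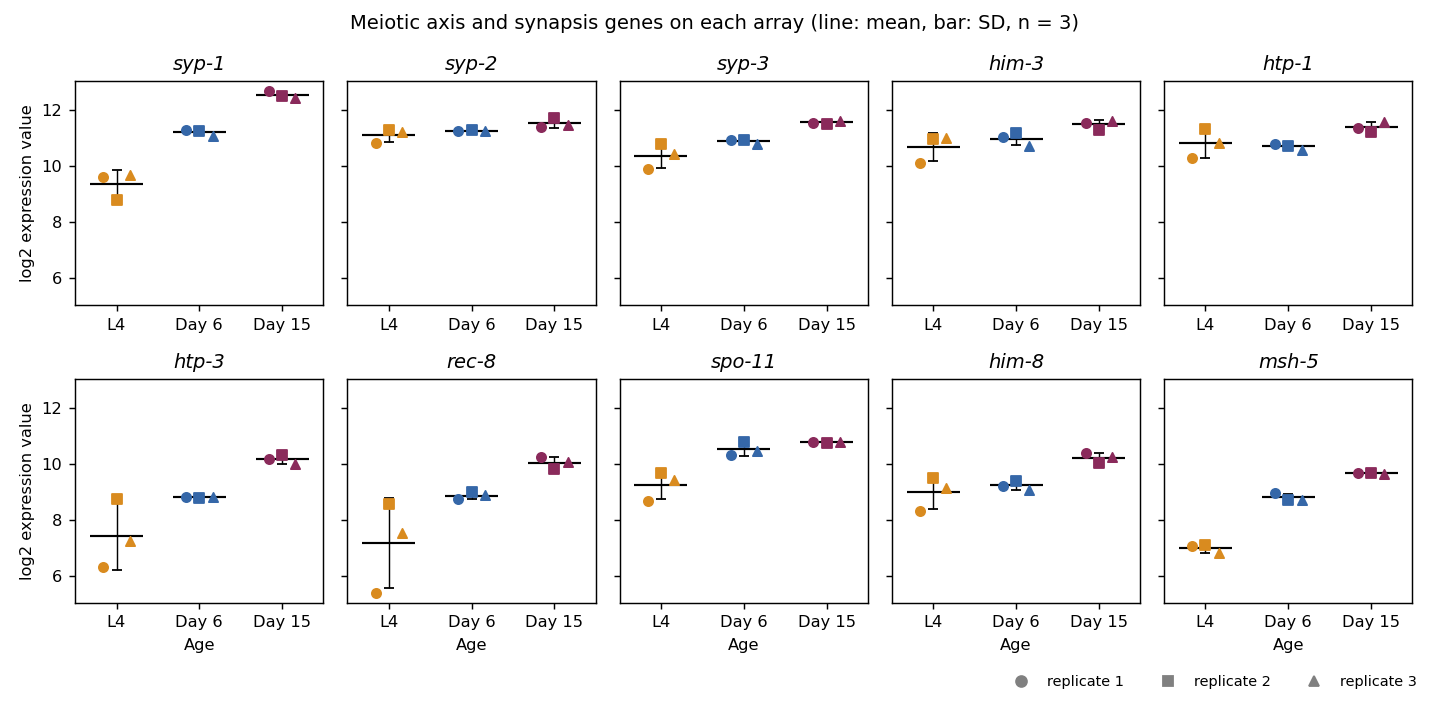
Log2 expression level (vertical axis) of the 10 genes on each of the 9 arrays by age, with 1 panel a gene and symbols for the replicate numbers. Horizontal lines are means and bars are SD (n = 3). Day 15 points lie above the Day 6 points in every panel but that of *spo-11*, and the L4 points of *htp-3* and *rec-8* spread from 6.32 to 8.74 and from 5.39 to 8.57.

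Among the components of the synaptonemal complex, *syp-1* had the largest change of the 10 genes in both comparisons with L4 when all arrays were used. Without L4 replicate 2 this order turned: from L4 to Day 15 *syp-1* changed by 2.90 on the log2 scale, *htp-3* by 3.40 and *rec-8* by 3.58, and from L4 to Day 6 *syp-1* changed by 1.57, *msh-5* by 1.88, *htp-3* by 2.03 and *rec-8* by 2.41. SYP-1 is a coiled-coil protein of the central region, which bridges the axes of the paired homologues. Its log2 level was 9.63, 8.80 and 9.67 in L4 replicates 1, 2 and 3, then 11.30, 11.27 and 11.10 at Day 6, and 12.69, 12.51 and 12.45 at Day 15. The ages did not overlap, and the lowest L4 array was replicate 2, which was the highest L4 array for most of the other genes. The level rose 3.62-fold from L4 to Day 6 (1.86 on the log2 scale, standard error (SE) 0.24, adjusted p = 1.74e-04) and 2.51-fold from Day 6 to Day 15 (1.33, SE 0.24, adjusted p = 0.00198). Over both steps this made 9.08-fold (adjusted p = 5.03e-06). The rises held with every other setting and with every array left out.

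SYP-2 and SYP-3 are partners of SYP-1 in the same central region, and loss of SYP-1, SYP-2 or SYP-3 prevents synapsis. For *syp-2* the log2 levels were 10.82, 11.30 and 11.23 in L4, 11.28, 11.29 and 11.26 at Day 6, and 11.40, 11.72 and 11.49 at Day 15. The Day 15 arrays were the highest, and the L4 and Day 6 arrays overlapped. No change of *syp-2* passed, and the 95% interval of the change from Day 6 to Day 15 ran from -0.15 to 0.67 on the log2 scale (adjusted p = 0.283). For *syp-3* the levels were 9.90, 10.80 and 10.43 in L4, 10.94, 10.94 and 10.80 at Day 6, and 11.55, 11.53 and 11.63 at Day 15. Here the Day 15 arrays stood clear of all others, while the highest L4 array equalled the lowest at Day 6. Relative to L4, *syp-3* rose 2.29-fold by Day 15 (1.19, SE 0.23, adjusted p = 0.00133). Without L4 replicate 1 this change was 0.96 and no longer 2-fold, with adjusted p = 0.00159. Between the adult ages it was 1.60-fold higher (0.68, SE 0.23, adjusted p = 0.0371), under the threshold on size.

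HIM-3, HTP-1 and HTP-3 are HORMA domain proteins of the axis, of which HTP-3 is needed to load the other HORMA proteins. The changes of *htp-3* were 2.75 on the log2 scale from L4 to Day 15 and those of *him-3* and *htp-1* under 0.80. Levels of *htp-3* were 6.32, 8.74 and 7.22 in L4, 8.80, 8.79 and 8.80 at Day 6, and 10.18, 10.33 and 10.01 at Day 15. The adult ages lay far apart, with an SD of 0.006 at Day 6 and 0.16 at Day 15, whereas the L4 arrays spanned more than 2 on the log2 scale and the highest of them came within 0.1 of the Day 6 arrays. At Day 15 the level was 2.60-fold higher than at Day 6 (1.38, SE 0.50, adjusted p = 0.0512), which passed with the adult arrays alone (adjusted p = 6.16e-05). In the fit of all ages it also passed without L4 replicate 1 (adjusted p = 0.011) and without L4 replicate 2 (adjusted p = 7.57e-04).

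The rise of *htp-3* from L4 to Day 6 (2.59-fold, SE 0.50 on the log2 scale, adjusted p = 0.0365) was lost with most single arrays left out. Without L4 replicate 1 the change went from 1.37 to 0.82 (adjusted p = 0.0934), and without L4 replicate 3 it was 1.27 (adjusted p = 0.0953). With an adult array left out the change stayed at 1.37, but it did not pass without Day 6 replicate 1, 2 or 3 (adjusted p = 0.0817, 0.0814 and 0.0804) or without Day 15 replicate 1, 2 or 3 (adjusted p = 0.0543, 0.0551 and 0.0537). Leaving out L4 replicate 2 kept the call, with a change of 2.03. By Day 15 *htp-3* had risen 6.71-fold over L4 (2.75, SE 0.50, adjusted p = 0.00106), which passed in every setting, although the change was 2.19 on the log2 scale without L4 replicate 1 and 3.40 without L4 replicate 2.

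The used probe set of *him-3* read 10.13, 10.97 and 11.02 in L4, 11.04, 11.18 and 10.74 at Day 6, and 11.56, 11.31 and 11.63 at Day 15. Every Day 15 array was above every other, and the 2 younger ages overlapped. A second probe set of *him-3* had lower values with the same order of ages, 8.72 to 9.19 in L4, 9.27 to 9.37 at Day 6 and 9.49 to 9.88 at Day 15, with no overlap between any ages. Between the adult ages the changes were 0.51 (SE 0.26, adjusted p = 0.147) and 0.42 (SE 0.19, adjusted p = 0.107 in a fit of all probe sets). Against L4, the Day 15 changes were 0.79 (adjusted p = 0.0227) and 0.82 (adjusted p = 0.00394), both short of 2-fold.

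HTP-1 acts at the axis to hold back synapsis until homologues have paired and to protect cohesin later in meiosis. Its levels of 10.29, 11.33 and 10.84 in L4, 10.81, 10.73 and 10.60 at Day 6 and 11.37, 11.22 and 11.59 at Day 15 made it the only gene of the 10 with a lower mean at Day 6 than in L4. All Day 15 arrays lay above the Day 6 arrays, but L4 replicate 2 lay among those of Day 15. The change from Day 6 to Day 15 was 0.68 (SE 0.26, adjusted p = 0.0602), that from L4 to Day 6 was -0.11 (adjusted p = 0.731) and that from L4 to Day 15 was 0.57 (adjusted p = 0.0734). *htp-2* encodes a nearly identical protein, and RNA of the one could bind probes of the other, which was not tested since the probe sequences were not analysed here. Its own probe set had mean levels of 8.84, 9.65 and 10.52 in L4, Day 6 and Day 15, and it rose from L4 to Day 15 (1.68, SE 0.34, adjusted p = 0.0020) but did not pass from Day 6 to Day 15 (0.87, SE 0.34, adjusted p = 0.0669).

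*rec-8* encodes the kleisin subunit of the cohesin that holds sister chromatids together in meiosis. Its levels were 5.39, 8.57 and 7.53 in L4, 8.73, 8.98 and 8.89 at Day 6, and 10.23, 9.81 and 10.07 at Day 15. As with *htp-3*, the ages did not overlap, but L4 replicate 2 came close to the Day 6 arrays and L4 replicate 1 lay far below, which gave *rec-8* the largest L4 SD of the 10 genes (1.62). The gene rose 7.33-fold from L4 to Day 15 (2.87, SE 0.66, adjusted p = 0.00374), a change of 1.99 on the log2 scale without L4 replicate 1 and of 3.58 without L4 replicate 2. With the methods' t-test after adjustment this rise did not pass (adjusted p = 0.0618). The 2.25-fold difference between Day 6 and Day 15 (1.17, SE 0.66) had adjusted p = 0.182 in the fit of all ages and 3.42e-04 with the adult arrays alone, and without L4 replicate 1 or L4 replicate 2 it passed in the fit of the other arrays (adjusted p = 0.00754 and 0.0489).

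The 3.26-fold rise of *rec-8* from L4 to Day 6 (adjusted p = 0.0442) was lost without L4 replicate 1, where the change was 0.82 on the log2 scale. It was lost as well without L4 replicate 3 (1.89, adjusted p = 0.0623), and, with changes of 1.65 to 1.77, without Day 6 replicate 1, 2 or 3 (adjusted p = 0.0834, 0.103 and 0.0941) and without Day 15 replicate 1, 2 or 3 (adjusted p = 0.063, 0.0654 and 0.0648).

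*spo-11* encodes the topoisomerase-like enzyme that makes the meiotic double-strand breaks. It stood apart from the other genes in that its adult ages overlapped: levels were 8.67, 9.67 and 9.44 in L4, 10.33, 10.77 and 10.46 at Day 6, and 10.78, 10.76 and 10.79 at Day 15. The Day 15 arrays were very close together (SD 0.015), and Day 6 replicate 2 lay between them. *spo-11* rose 2.40-fold from L4 to Day 6 (1.26, SE 0.26, adjusted p = 0.00249), a change of 0.97 and no longer 2-fold without L4 replicate 1. Its change from Day 6 to Day 15 was 0.26 with a 95% interval from -0.34 to 0.85 (adjusted p = 0.468).

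HIM-8 is a zinc finger protein that binds the pairing centre of the X chromosome, and its loss leaves the X chromosomes unpaired. Levels of *him-8* were 8.31, 9.49 and 9.15 in L4, 9.22, 9.38 and 9.08 at Day 6, and 10.39, 10.03 and 10.23 at Day 15. L4 and Day 6 overlapped, and the Day 15 arrays stood above both. The difference between Day 6 and Day 15 was 1.99-fold (0.99, SE 0.29, adjusted p = 0.021), just under the 2-fold threshold. It passed without Day 6 replicate 2 (1.07, adjusted p = 0.0416) and without Day 15 replicate 2 (1.08, adjusted p = 0.0372). It rose 2.35-fold from L4 to Day 15 (adjusted p = 0.0043), and without L4 replicate 1 the change was 0.90 and under 2-fold.

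The *zim* genes encode the related zinc finger proteins for the pairing centres of the autosomes and lie beside *him-8* on its chromosome, *zim-3* as the nearest protein-coding neighbour, *zim-2* at 2 genes and *zim-1* at 3 genes of distance. *zim-3* rose by 1.47 (adjusted p = 0.00639) and *zim-2* by 1.19 (adjusted p = 5.88e-04) from Day 6 to Day 15, and the change of *zim-1* was 1.12 (adjusted p = 0.0857). In the step from L4 to Day 6 *zim-2* and *zim-1* rose, by 2.23 (adjusted p = 8.23e-06) and 1.85 (adjusted p = 0.00743), while *zim-3* had a change of 0.53 (adjusted p = 0.19) and *him-8* one of 0.24 with a 95% interval from -0.41 to 0.90. Whether *him-8* and the *zim* genes differ in this step was not tested.

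MSH-5 is a MutS family protein that works with HIM-14, the MSH-4 of the worm, to stabilise crossover intermediates. The *msh-5* levels were 7.04, 7.10 and 6.79 in L4, 8.95, 8.72 and 8.72 at Day 6, and 9.68, 9.68 and 9.64 at Day 15, without overlap between the ages. The L4 SD of 0.16 was the smallest of the 10 genes. It rose 3.53-fold from L4 to Day 6 (1.82, SE 0.16, adjusted p = 1.53e-05) and 6.45-fold from L4 to Day 15 (2.69, SE 0.16, adjusted p = 1.02e-06). At Day 15 it was 1.83-fold higher than at Day 6 (0.87, SE 0.16, adjusted p = 0.00196), short of the threshold on size. The second probe set of *msh-5* read 4.64, 5.95 and 4.66 in L4, 6.56, 6.97 and 6.76 at Day 6, and 8.32, 8.39 and 8.06 at Day 15. On this dimmer probe set the later change was larger, 1.49 (SE 0.34, adjusted p = 0.00654 in the fit of all probe sets), and passed both thresholds.

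**Figure D2:**
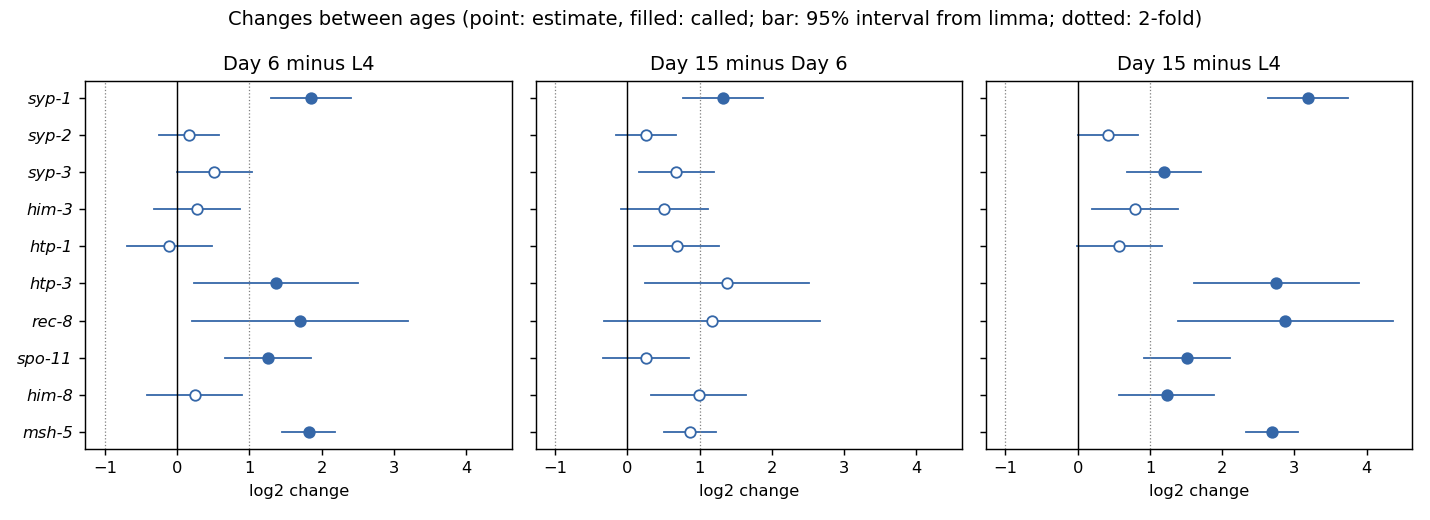
Change of each of the 10 genes on the log2 scale (horizontal axis) in the 3 comparisons of ages. Points are limma estimates, bars their 95% intervals, filled points are called (adjusted p under 0.05 and at least 2-fold), and dotted lines mark 2-fold. The filled points number 5, 1 and 7, and the widest intervals are those of *rec-8* and *htp-3*.

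Whether the change differed between the step from L4 to Day 6 and the step from Day 6 to Day 15 was tested in the same fit. Only *msh-5* passed, with a later step smaller by 0.95 on the log2 scale (SE 0.28, adjusted p = 0.0193). Over all tested genes 28% had a smaller and 22.5% a larger later step at that threshold. The second probe set of *msh-5* had a difference of -0.19 (SE 0.59, adjusted p = 0.816), and whether the probe sets differ in it was not tested. In *spo-11* the later step was smaller by 1.00 (adjusted p = 0.095), and in *htp-1* it was larger by 0.79 (adjusted p = 0.174), neither of which passed. Without L4 replicate 1, 3 genes passed, of which 2 had a larger and 1 a smaller later step, without L4 replicate 2 there were 2, both with a smaller later step, and without Day 6 replicate 1 none of the 10 did.

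The order of the L4 arrays was shared among the genes. In 7 of 10 the L4 levels ran replicate 2, 3, 1 from high to low, an order found in 25.5% of tested genes, and replicate 1 was the lowest L4 array in 8 of 10, beside 34.7%. The opposite order, found in 25.7% of tested genes, occurred in none of the 10. The mean level over the 10 genes was 8.65, 9.68 and 9.33 in L4 replicates 1, 2 and 3, between 10.05 and 10.21 at Day 6 and between 10.89 and 10.98 at Day 15. The germ cell and oocyte markers ran in the same order over the L4 arrays, and their part in the L4 values of the 10 genes was not tested.

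**Figure D3:**
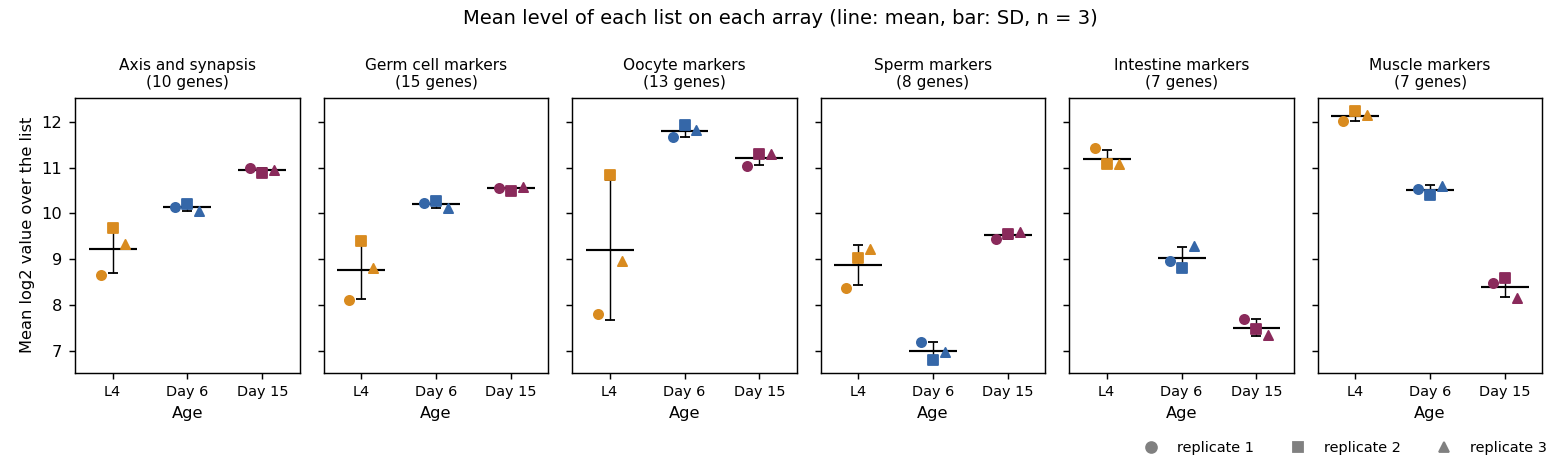
Mean log2 level over the genes of each list (vertical axis) on each array by age, for the 10 axis and synapsis genes, 15 germ cell, 13 oocyte, 8 sperm, 7 intestine and 7 body wall muscle markers. Lines are means over arrays and bars SD (n = 3). The 10 genes and the germ cell markers are highest at Day 15, the oocyte markers at Day 6, the sperm markers lowest at Day 6, and the intestine and muscle markers are lower at each later age.

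Markers of other cells moved between the same ages. Of all tested genes 29.2% rose and 24.6% fell from L4 to Day 6, and 16.4% rose and 16.9% fell from Day 6 to Day 15. Of the 15 germ cell markers, 8 rose from L4 to Day 6, and 1, the chromatin regulator *mes-2*, rose from Day 6 to Day 15 (median change of the list 0.43). All 13 oocyte markers rose from L4 to Day 6, and their changes from Day 6 to Day 15 were all below 0 (median -0.61). None of these later changes passed in the fit of all ages, where the spread of the L4 arrays, wide in these markers, enters the error. Marker changes with the adult arrays alone are not given here. The lowest, median and highest array means of the oocyte markers went from 11.67, 11.81 and 11.93 to 11.03, 11.29 and 11.30. The 10 meiosis genes had their higher values at the age when the oocyte markers had lower means. Of 8 sperm markers tested, 4 fell and 1 rose from L4 to Day 6 and 7 rose from Day 6 to Day 15, from array means of 6.80, 6.98 and 7.20 to 9.43, 9.55 and 9.59. *gsp-3*, a phosphatase of sperm, rose by 3.93 there (adjusted p = 7.77e-05), while *spe-9* and *spe-38*, sperm proteins needed at fertilisation, stayed under the filter at every age. The embryo markers *med-1*, *end-1*, *end-3*, *pes-10* and *tbx-37* were under the filter at all ages too. The other 3 that were tested had array means of 5.33 to 6.3 in L4, 5.59 to 6.12 at Day 6 and 4.41 to 4.57 at Day 15. At Day 15 the level of *elt-7* was 6.4, and those of *sdz-28* and *nob-1* were under 4. From Day 6 to Day 15 *elt-7* and *sdz-28* fell (-1.67 and -1.68, adjusted p = 0.00178 and 0.0155), and *nob-1* did not pass (-0.81, adjusted p = 0.191). Whether these 3 genes report embryos here was not tested. Between the adult ages 4 of 7 intestine, 5 of 7 body wall muscle and 3 of 8 neuron markers fell, and 1 of 6 somatic gonad markers, a share near the 16.9% of all tested genes. The part of any of these cells in the values of the 10 genes was not tested.

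When each array was expressed relative to the mean of its 15 germ cell markers, the 10 genes no longer moved one way. The markers themselves differed: their changes ran from -0.94 to 3.89 from L4 to Day 6, with a median of 1.11. A change relative to their mean is therefore not a measure per germ cell. From Day 6 to Day 15, *htp-3* was higher relative to the markers (1.04, SE 0.34, adjusted p = 0.0376, beside 11.9% of tested genes higher), the other 9 changes lay between -0.08 and 0.99 and did not pass, and 0 of the 10 were lower (19.4% of tested genes). The call of *htp-3* was lost without L4 replicate 3 and without any single adult array, when the count was 0. The spread of the L4 arrays enters the error of this comparison too. Relative changes with the adult arrays alone are not given here, so a change that did not pass is not shown to be absent. Between L4 and Day 6, *syp-2*, *him-3*, *htp-1* and *him-8* were lower by 1.16 to 1.54 (adjusted p = 4.33e-04 to 0.00433), as 54.8% of tested genes were, and 0 of the 10 were higher (8.03% of tested genes). At Day 15 relative to L4, *syp-1* (1.41, adjusted p = 0.0182) and *rec-8* (1.10, adjusted p = 0.0438) were higher, beside 7.41%, and *syp-2* (-1.35, adjusted p = 0.00198) and *htp-1* (-1.20, adjusted p = 0.00174) were lower, beside 60.5%. These calls moved with single arrays: 0 were higher and 3 lower without Day 15 replicate 1, 1 was higher and 2 lower without L4 replicate 3, without any single Day 6 array or without Day 15 replicate 2, and 2 were higher and 3 lower without L4 replicate 2 or without Day 15 replicate 3. With quantile normalization 1 was higher and 2 lower, and without probe sets that the array names as shared between transcripts (_s_at, _x_at) 3 were higher and 0 lower.

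**Figure D4:**
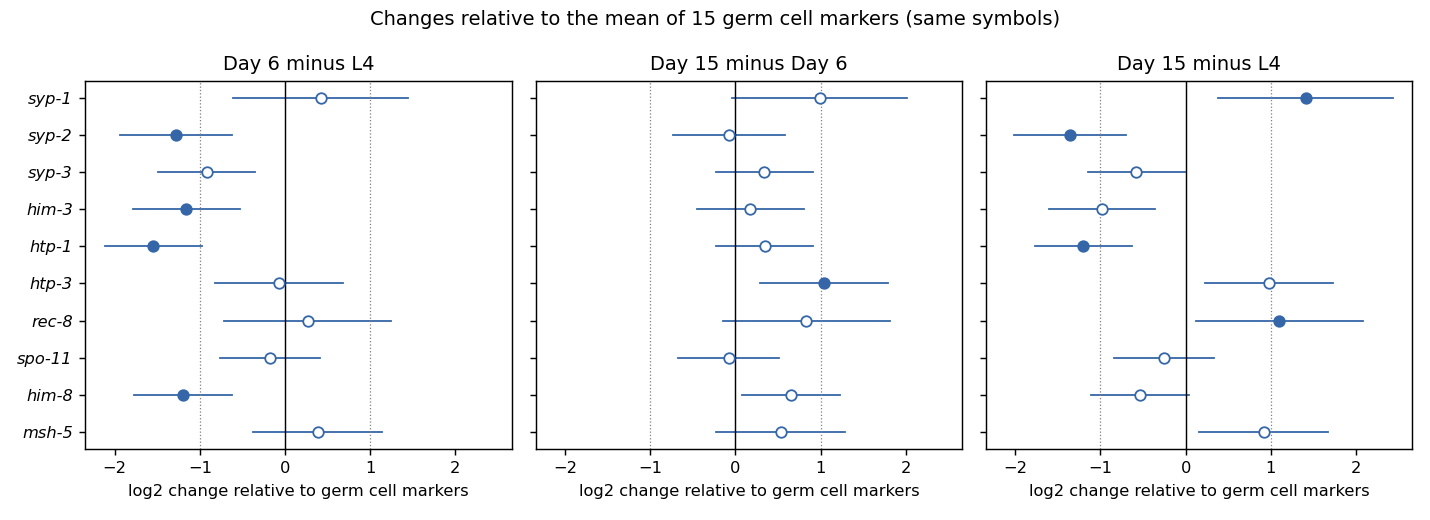
Change of each of the 10 genes relative to the mean of the 15 germ cell markers on the same array (horizontal axis, log2 scale) in the 3 comparisons. Points are estimates, bars 95% intervals, filled points are called and dotted lines mark 2-fold. From Day 6 to Day 15 only *htp-3* is filled, and from L4 to Day 15 *syp-1* and *rec-8* lie right of 0 and *syp-2* and *htp-1* left of it.

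The other genes of the pathway gave counts in one direction. Of 54 tested genes in 6 lists (axis and synaptonemal complex, cohesin, pairing and movement, double-strand breaks, strand exchange and repair, crossovers), 40 (74.1%) rose from L4 to Day 6, 12 (22.2%) from Day 6 to Day 15 and 50 (92.6%) from L4 to Day 15, and 0 fell. Over all tested genes 29.2%, 16.4% and 32.3% rose, so the share of the later step lay near that of all genes. With the 6 adult arrays alone, 14 of the pathway genes rose from Day 6 to Day 15, beside 18.2% of tested genes. The median changes of the 54 genes in the fit of all ages were 1.52, 0.79 and 2.33. For the 10 genes the medians were 0.89, 0.78 and 1.38, and for all tested genes 0.17, 0.00 and 0.23.

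Of the 8 other axis and synaptonemal complex genes, 4 rose from L4 to Day 6 and 1 from Day 6 to Day 15. Over all tested genes 29.2% and 16.4% rose in these steps, so the later count was under the share of all genes. *syp-4*, *syp-5* and *syp-6*, which encode further proteins of the central region, rose from L4 to Day 6 by 2.14, 1.78 and 2.62 (adjusted p = 1.02e-04, 2.45e-04 and 6.63e-05). In the same step *syp-1* rose by 1.86 while *syp-2* and *syp-3* did not pass. Whether the *syp* genes differ in this step was not tested. *syp-5* rose again from Day 6 to Day 15, by 1.12 (adjusted p = 0.00549). *pch-2*, whose product remodels HORMA proteins, rose from L4 to Day 6 by 2.15 (adjusted p = 0.00403).

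Of 9 other cohesin genes 8 rose from L4 to Day 6, and 1, *coh-3*, rose from Day 6 to Day 15 (1.21, SE 0.36, adjusted p = 0.0222). The shares of all tested genes were 29.2% and 16.4%, and the later count was under the second of these. COH-3 is a kleisin of meiotic cohesin like REC-8, and from L4 to Day 15 *coh-3* rose by 3.92 (adjusted p = 1.52e-05) beside 2.87 for *rec-8*. *scc-1*, the kleisin of dividing cells, rose by 3.10 over the same span (adjusted p = 0.00149) and by 2.85 from L4 to Day 6 (adjusted p = 0.00266). The cohesin core gene *smc-3* rose by 1.91 from L4 to Day 6 (adjusted p = 0.00147).

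Among 6 pairing and movement genes 3 rose from Day 6 to Day 15, beside 16.4% of tested genes. They were *zim-3*, *zim-2* and *chk-2*. CHK-2 is the kinase that starts pairing and break formation, and *chk-2* rose by 1.30 (SE 0.28, adjusted p = 0.00427) from a low level of 5.02. In the earlier step 4 of the 6 rose, beside 29.2% of tested genes. Among the 4 was *sun-1*, a nuclear envelope protein that moves chromosome ends (1.27, adjusted p = 0.00163).

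Of 9 double-strand break genes 6 rose from L4 to Day 6, beside 29.2% of tested genes. Largest was *rad-50*, a subunit of the break-processing complex with MRE-11, by 5.61 (SE 0.70, adjusted p = 1.31e-04) from a level of 4.10 close to background, and *mre-11* rose by 3.37 (adjusted p = 2.06e-05). In the later step, when *spo-11* did not pass, 3 rose, beside 16.4% of tested genes. These were *com-1*, which acts in break resection (1.40, adjusted p = 0.013), and *dsb-1* and *him-5*, which promote break formation (1.23 and 1.02, adjusted p = 0.0115 and 0.0132).

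In the strand exchange and repair list, 14 of 16 rose from L4 to Day 6 and 1 of 16, *rad-54.L*, from Day 6 to Day 15 (1.08, adjusted p = 0.00948). Over all tested genes 29.2% and 16.4% rose in these steps, so the later count was under the share of all genes. The largest earlier rises were those of *him-18*, a scaffold of DNA-cutting enzymes (3.62, adjusted p = 0.0019), the mismatch repair gene *mlh-1* (3.01, adjusted p = 2.72e-04), the nuclease gene *xpf-1* (2.60, adjusted p = 5.77e-04) and the checkpoint kinase gene *atl-1* (2.22, adjusted p = 6.94e-05). Of 6 crossover genes 4 rose from L4 to Day 6 and 3 from Day 6 to Day 15, beside the same 29.2% and 16.4%. In the earlier step *zhp-2* rose by 1.83 (adjusted p = 0.00575) and *cosa-1*, which marks crossover sites, by 1.54 (adjusted p = 7.21e-04). *him-14*, the partner of *msh-5*, rose by 1.78 (SE 0.26, adjusted p = 5.13e-04) in the later step, and its change in the earlier one did not pass. A test of the difference between the steps of *him-14* is not given here. *zhp-1* and *zhp-3*, which encode RING finger proteins, rose by 1.54 and 1.11 (adjusted p = 0.00242 and 0.0025) from Day 6 to Day 15.

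**Figure D5:**
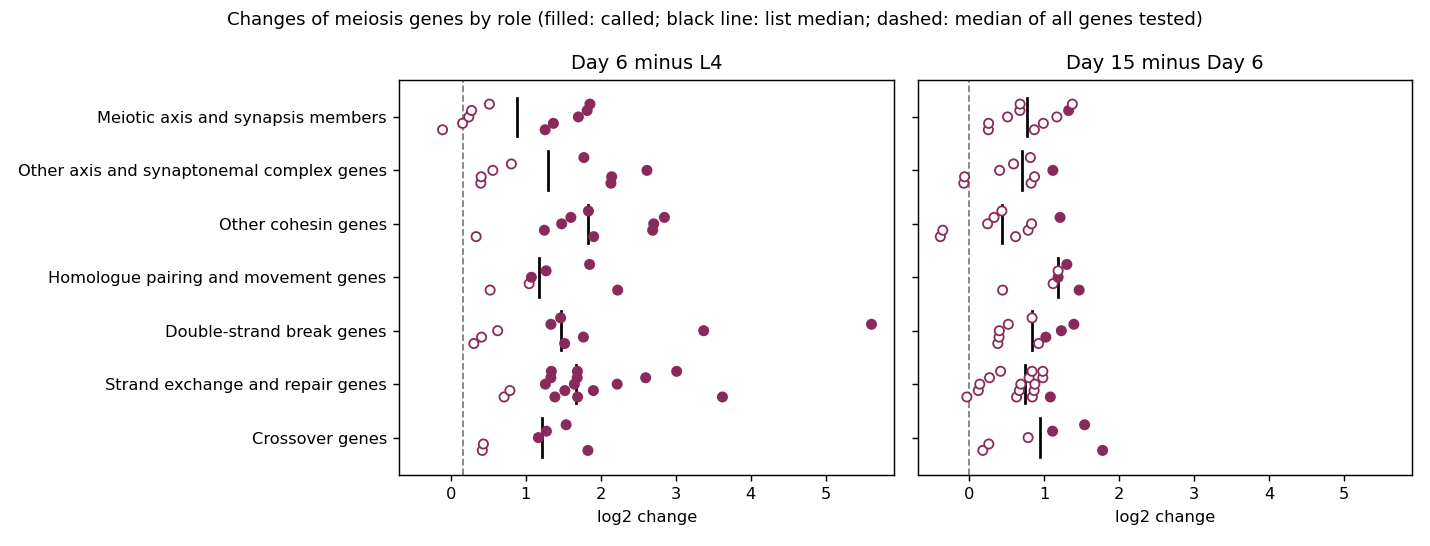
Change on the log2 scale (horizontal axis) of each tested gene, by list, from L4 to Day 6 and from Day 6 to Day 15. Filled points are called, black lines are list medians, and the dashed line is the median of all genes tested. The 10 axis and synapsis genes have a median of 0.89 and 0.78, and calls are fewer in every list in the later step.

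Genes outside the pathway lists with a pattern most like that of the 10 were found by Pearson's r over the 9 arrays with the mean of their standardised profiles, among 8613 genes called in at least 1 comparison. Closest were *hpo-32* (r = 0.995), *ftr-1* (0.992), *fbxa-145* (0.991), the spindle checkpoint kinase gene *bub-1* (0.991), the kinesin light chain gene *klc-1* (0.990), Y48G10A.2 (0.989), Y48G9A.11 (0.989), *set-22* (0.988), *cec-10* (0.986) and *emb-1* (0.986). Such values were common, since 766 of the candidates (8.89%) were over 0.9. Among the 10 genes themselves r ran from 0.807 for *htp-1* and 0.841 for *syp-1* to 0.998 for *syp-3*, each of which is part of the mean. The points share 3 ages, so r is a description and no test.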

How the data were processed

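Whole-worm RNA was hybridised to 9 GeneChip arrays of the *C. elegans* genome, 3 for each age. Per array the authors started from 100 ng of total RNA, normalized the scans with GCRMA (version not given in the sources used here) and deposited log2 expression values per probe set. GCRMA corrects background from probe sequence and makes the arrays comparable. The size of a change from a level near background is less certain. Neither the MAS5 present-call filter of the authors nor their centring of each gene was applied. Array medians were 5.42 to 5.73, and 59.8% to 61.6% of probe sets were at 4 or above.

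The array's annotation gives 1 gene for 20766 probe sets, several for 887 and none for 972, of which 77 are controls. Of a gene's probe sets the one of highest mean level was used, and a gene was tested if it reached 4 on average in any age. Ages were compared in limma 3.58.1 under R 4.3.3 with lmFit and eBayes, where the 9 arrays in 3 groups left 6 residual degrees of freedom. Figures were made with Python 3.11.15 and matplotlib 3.10.9. The procedure was tested on simulated data in which each gene had the same spread at all ages. That test does not cover the wider spread of the L4 arrays.

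The 10 genes and the lists were chosen with earlier results of these data known. Genes named from a pathway list were taken from the called genes with the largest changes in each comparison, up to 4 in the direction of most calls, and the genes of likest profile were 10. Changes of *htp-2*, *zim-1*, *zim-3* and *him-14* that did not pass are given beside those of their relatives or partners. *coh-4*, *pds-5*, *pqn-85*, *zyg-12*, *rec-1* and *rfs-1* were listed but had no probe set matched here, and *atm-1* was under the filter. *lab-1*, *skr-1*, *mau-2* and *dsb-3* passed in no comparison. They and the other tested genes of the pathway lists that are not named stand in the counts only. The alternatives used other arrays, filters, probe sets, scalings, variance models or tests, took the replicate number as a block, or left out each array in turn. The number of arrays limits the precision.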

Additional observations from a re-analysis of the deposited data

How the results depend on the processing

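Apart from leaving out arrays, 12 other settings were run, and no change of a gene that was called turned its direction. The count of the 10 genes that rose from L4 to Day 6, 5 in the fit reported, was 3 with only the 2 ages in the fit, with quantile normalization and with the methods' t-test before or after adjustment, since *htp-3* and *rec-8* dropped out. It was 4 without the filter on low values, where *rec-8* did not pass (adjusted p = 0.0613). Without _s_at or _x_at probe sets, where *rec-8* was not tested, it was 4 as well. Leaving out 1 array gave 2 to 5. From Day 6 to Day 15 the count, reported as 1, was 2 with an intensity trend, 2 without probe sets named _s_at or _x_at, and 3 with the mean of a gene's probe sets, with the 2 ages alone and with the methods' t-test before or after adjustment, and leaving out 1 array gave 1 to 3. From L4 to Day 15 the reported 7 became 5 without _s_at or _x_at probe sets, which leaves *syp-3* and *rec-8* of those called without a test, 6 with the methods' t-test after adjustment, where *rec-8* did not pass (adjusted p = 0.0618), and 5 to 7 with an array left out. The difference between the steps, reported for 1 gene, was 0 with the mean of a gene's probe sets, and 0 to 3 with an array left out. Relative to germ cell markers, the 4 genes of L4 to Day 6 were 0 without _s_at or _x_at probe sets (4 to 5 with an array left out), and the 1 gene of Day 6 to Day 15 was 0 without those probe sets and with quantile normalization (0 to 1 with an array left out). From L4 to Day 15 the 4 genes, 2 higher and 2 lower, were 3 to 5 with an array left out, 3 higher and 0 lower without _s_at or _x_at probe sets, 1 higher and 2 lower with quantile normalization, and 2 higher and 3 lower with the mean of a gene's probe sets. The other pathway genes that rose, 40 and 50 from L4 to Day 6 and to Day 15, were 23 and 32 without _s_at or _x_at probe sets, which leaves fewer genes; this check was chosen after seeing the data. The causes of the other shifts were not tested.

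Same-numbered replicates did not deviate together: of 9 pairs the correlations ran from -0.0564 to 0.185 and 1 was over 0.1. With the replicate number as a block, 2 of the 10 genes rose from Day 6 to Day 15 instead of 1, the added gene being *htp-3* (adjusted p = 0.0479), and 0 instead of 1 was higher relative to germ cell markers. Centring each array on its median moved the median change of all tested genes from 0.17 to 0.37 for L4 to Day 6 and from 0.23 to 0.41 for L4 to Day 15, and left the counts of the 10 genes at 5, 1 and 7. The 3 arrays of each age limit the precision.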
